A study of Mus musculus with 18 samples.

Results

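The matNeu-only H3K4me2 peaks were the enriched regions of the matNeu list that no H3K4me2 peak of GMPs or preNeu cells touched by even 1 bp. There were 3534 of them among the 44094 H3K4me2 peaks of matNeu cells, or 8.01%. Of the other matNeu peaks, 23861 overlapped peaks of both earlier stages, 16423 overlapped preNeu peaks alone and 276 overlapped GMP peaks alone, and these 40560 are called shared peaks here. ChIP-seq recovers the DNA held by a marked histone with an antibody and sequences it, and each stage had 1 library. The regions were chosen by the presence and absence of peaks in these 3 lists, so their H3K4me2 values are given as a description.

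All cells were sorted from bone marrow of C57BL/6 mice 6 to 12 weeks old. GMPs, the progenitors of granulocytes and monocytes, were lin- cKIT+ SCA- CD16/32+ CD34+ cells. The preNeu cells, proliferating precursors committed to the neutrophil lineage, were Mac-1+ Gr1+ cKIT+ CXCR4+ cells, and the matNeu cells, mature neutrophils, were Mac-1+ Gr1+ CXCR2+ cells. These were WT for Gfi1. CHD4 ChIP-seq came from WT GMPs and from Gfi1-/- GMPs with 1 library each, ATAC-seq had 1 list, and RNA-seq had 3 libraries for each of the 3 stages.

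Dimethylation of lysine 4 on histone H3 marks promoters and enhancers, and away from promoters it is widely used to find enhancers that a cell has primed or put to use. As a neutrophil matures it stops dividing, ends the production of its granule proteins and turns on the receptors and inflammatory genes with which it leaves the marrow and meets microbes. CHD4 is the ATPase of the NuRD complex, which moves nucleosomes and removes acetyl groups from histones, and the study asked where it sits together with GFI1, a repressor needed for neutrophil formation.

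The stage of each library was taken from its title. A second label gave another stage for 13 of the 17 samples that carry both, so the titles were checked against the data. The peak names inside the matNeu H3K4me2 list call it neutrophil and those inside the preNeu list call it preNeu. In the RNA, the summed level of 9 matNeu markers ran from 34495 to 37222 TPM (each gene's transcripts as a share of the library, corrected for length) in the matNeu libraries and from 1279 to 1511 TPM in the preNeu libraries. Summed over 6 GMP markers it ran from 32210 to 34111 TPM in the GMP libraries against 12.5 to 21.5 TPM in the matNeu libraries, and over 7 preNeu markers from 139429 to 161339 TPM in the preNeu libraries against 2264 to 4160 TPM in the matNeu libraries. The ATAC-seq lists deposited for preNeu and matNeu cells held the same 16307 peaks with the same values, and were used as 1 list whose stage is not settled.

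The matNeu-only peaks were narrow and weak. Together they covered 1.64 Mb, against 78.8 Mb for the shared peaks, and their median width was 332 bp (range 165 to 11117 bp) against 1256 bp. Their median fold enrichment over the background was 2.51, with quartiles of 2.39 and 2.72, against 4.05 for the shared peaks. The median −log10 q-value was 1.46 against 5.94, and 2691 of them (76.1%) lay below 2, where 17.9% of the shared peaks lay. A q-value of 5 or more on that scale was reached by 67 matNeu-only peaks (1.9%) and by 54.6% of the shared peaks. Peaks found only in preNeu cells (8470) or only in GMPs (8381) were also weak, with median fold enrichments of 2.8 and 2.57. The sequencing depth behind each list is unknown, and how near a region missing from a list came to the caller's threshold there cannot be given.

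Most of these regions stood near H3K4me2 that the earlier stages already carried. The median distance to the nearest peak of GMPs or preNeu cells was 3029 bp, the closest was 1 bp away, and 2165 (61.3%) had such a peak within 5 kb. Within the matNeu list itself the nearest shared peak was at a median distance of 4123 bp. At the edge of the rule, the 86 regions within 50 bp of a peak of another stage had a median fold of 2.46 and a width of 298 bp, and the 147 shared peaks that overlapped by no more than 50 bp had a median fold of 2.48 and a width of 269 bp.

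The sequences below are the central 200 bp of 6 matNeu-only peaks, on the forward strand of GRCm38.p6 (mm10), read 5′ to 3′ from the RefSeq genome. They are shown because they lie at genes on which the results turn: Csf3r and Cxcr2, the receptors for G-CSF and for neutrophil chemokines, Nlrp3 and Tlr4, which sense microbes and danger, Sorl1, whose peak is among the 20 with the highest fold, and Cab39, whose peak also carried CHD4. Capitals mark exact matches to the short words searched for, which were TGANTCA for AP-1, TTGCNNAA for C/EBP, GAGGAAGT for PU.1, AANNGAAA for IRF factors, AAATCA for GFI1, TGTGGTT for RUNX and CCACACCC for KLF, on either strand. The Csf3r window (chr4:126005074-126005273) is intergenic and holds none of these words. The Nlrp3 window (chr11:59538423-59538622) is intergenic, 3.04 kb upstream of the start site, and holds C/EBP words at positions 135 and 163. The Cxcr2 window (chr1:74170442-74170641) is intergenic and holds adjacent C/EBP and IRF words at positions 180 and 188. The windows at Sorl1 (chr9:42108609-42108808), Tlr4 (chr4:66857207-66857406) and Cab39 (chr1:85838145-85838344) lie in introns of these genes and hold AP-1 words at positions 6, 9 and 99, and that of Cab39 holds a PU.1 word at position 133.
Csf3r: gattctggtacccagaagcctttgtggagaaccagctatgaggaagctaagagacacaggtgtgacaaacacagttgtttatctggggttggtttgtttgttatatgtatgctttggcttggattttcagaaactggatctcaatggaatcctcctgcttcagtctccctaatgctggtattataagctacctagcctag
Nlrp3: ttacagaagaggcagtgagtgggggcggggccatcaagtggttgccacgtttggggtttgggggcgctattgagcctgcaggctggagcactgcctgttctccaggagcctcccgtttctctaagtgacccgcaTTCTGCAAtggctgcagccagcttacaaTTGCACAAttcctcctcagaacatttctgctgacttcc
Cxcr2: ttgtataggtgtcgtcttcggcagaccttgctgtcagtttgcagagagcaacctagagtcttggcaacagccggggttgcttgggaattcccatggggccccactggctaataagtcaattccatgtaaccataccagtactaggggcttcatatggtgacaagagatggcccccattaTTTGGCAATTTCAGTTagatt
Sorl1: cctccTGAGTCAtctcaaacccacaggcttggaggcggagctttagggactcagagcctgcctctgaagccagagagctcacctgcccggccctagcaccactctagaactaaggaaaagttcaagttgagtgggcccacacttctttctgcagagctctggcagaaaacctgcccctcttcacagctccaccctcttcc
Tlr4: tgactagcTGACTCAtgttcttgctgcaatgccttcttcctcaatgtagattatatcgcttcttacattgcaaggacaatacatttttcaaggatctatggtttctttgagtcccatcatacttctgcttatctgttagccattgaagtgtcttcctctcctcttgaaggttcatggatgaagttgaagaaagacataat
Cab39: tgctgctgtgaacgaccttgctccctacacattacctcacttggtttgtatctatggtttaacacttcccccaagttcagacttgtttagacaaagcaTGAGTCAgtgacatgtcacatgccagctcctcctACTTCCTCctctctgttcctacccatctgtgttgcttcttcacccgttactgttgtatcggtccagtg

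AP-1 words were more common in the matNeu-only windows than in the other windows compared. They were in 284 of 3512 windows (8.09%, 95% Wilson interval 7.23 to 9.03%), against 5.56% of the shared peaks, 6.62% of the preNeu-only peaks, 5.71% of the GMP-only peaks and 5.48% of the 200 bp before every RefSeq gene start. Against the windows 5 kb to the right of the same peaks (6.19%) the difference was 1.9 percentage points (Newcombe interval 0.697 to 3.11), and against shared peaks of like strength, those with a −log10 q-value below 2 (6.43%), it was 1.65 points (0.615 to 2.75). AP-1 is the family of FOS, JUN and ATF factors that respond quickly to activation.

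PU.1, the ETS factor that myeloid cells depend on, had its word in 4.36% of the windows, 1.37% of the windows 5 kb away and 2.06% of those before gene starts, a difference from the flanks of 2.99 points (2.22 to 3.79). Against the weak shared peaks (4.28%) the interval of the difference held 0 (−0.718 to 0.928). C/EBP words, bound by the factors of granulocyte formation, were in 10.2% of the windows and 7.55% of the flanks (2.67 points, 1.34 to 4.0), but in 14.6% of the preNeu-only peaks, which was higher by an interval that excluded 0 (matNeu-only less preNeu-only −4.38 points, −5.61 to −3.1). IRF words were in 22.5% of the windows and 24.0% of the flanks, and GFI1 words in 13.6% and 15.0%, and both intervals of the difference held 0 (−3.54 to 0.411 and −3.05 to 0.227). GFI1 words were more common than in shared (3.27 points, 2.14 to 4.48), weak shared (2.47, 1.15 to 3.84) and GMP-only peaks (1.45, 0.138 to 2.8). Against preNeu-only peaks their interval held 0 (−0.69 to 1.99). IRF words were less common than in preNeu-only (−5.04 points, −6.7 to −3.34) and weak shared peaks (−1.9, −3.58 to −0.182). They were more common than in GMP-only peaks (2.11, 0.504 to 3.76), and the interval against all shared peaks held 0 (−1.2 to 1.68). The RUNX word was in 5.78% of the windows against 5.27% of the flanks and 3.49% of the windows before gene starts, and the KLF word in 1.96% against 1.85% and 2.72%. IRF and GFI1 words were in 17% and 9.79% of the windows before gene starts, and C/EBP words in 7.47%. Base composition differed between these sets: the median GC content was 47.0% in the matNeu-only windows, 49.5% in the shared and 44.5% in the flanks, and repeats took up 31.1%, 15.8% and 29.8% of their bases. The part of composition in these shares was not tested.

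The matNeu-only peaks lay away from promoters. Promoters were taken as the 2 kb before and the 500 bp after the start sites of transcripts of protein-coding genes, internal starts included. They held the midpoints of 212 matNeu-only peaks (6.0%, Wilson interval 5.26 to 6.83%), against 26.5% of the shared peaks, a difference of −20.5 points (Newcombe interval −21.4 to −19.6). Introns held 49.1% against 35.4%, intergenic DNA 41.9% against 33.9% and exons 2.97% against 4.15%. The preNeu-only peaks were at promoters about as often (5.53%, difference 0.473 points, −0.42 to 1.43) and the GMP-only peaks more often (11.9%, difference −5.9 points, −6.92 to −4.83). Among weak peaks alone the promoter shares were 5.28% for matNeu-only and 9.8% for shared peaks (−4.53 points, −5.58 to −3.4). The median distance to a start site was 15068 bp, against 7589 bp for shared, 16193 bp for preNeu-only and 20021 bp for GMP-only peaks. Of the 3099 matNeu-only peaks with a protein-coding start site within 100 kb, 58.8% lay in the body of that gene, 28.4% upstream of it and 12.8% downstream of it. Intervals here and below cover counting error only, since neighbouring peaks of 1 library are not replicates.

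CHD4 of WT GMPs was found at a smaller share of matNeu-only peaks than of the other classes compared. Of the 35790 CHD4 peaks, some touched 389 matNeu-only peaks (11%, Wilson interval 10 to 12.1%). The share was 31.1% for shared peaks (difference −20.1 points, Newcombe interval −21.2 to −18.9), 14.8% for preNeu-only peaks (−3.83 points, −5.09 to −2.53) and 17.8% for GMP-only peaks (−6.78 points, −8.08 to −5.44). In windows of 500 bp at the midpoints, which take out the difference in width, it was 11.1% against 23.4% for the shared peaks. Among weak peaks alone it was 8.99% against 23.0% (−14.0 points, −15.4 to −12.5). The difference from the shared peaks stood in introns (10.2% against 38.2%), in intergenic DNA (12.1% against 36.9%) and in exons (6.67% against 23.2%). At promoters the shares were 11.8% and 15.4%, and the interval of that difference held 0 (−7.36 to 1.46). Among the matNeu-only promoter peaks, 15 had a fold below 2, a class described below of which 67.3% had CHD4. The promoter shares were not computed without that class. CHD4 peaks of Gfi1-/- GMPs, of which the list had 7316, touched 90 matNeu-only peaks (2.55%) and 8.21% of the shared peaks. Of the 389 regions with CHD4 in WT GMPs, 88 (22.6%) also had a CHD4 peak in Gfi1-/- GMPs. The share was 26.4% for the shared peaks with CHD4, and the interval of the difference held 0 (−7.69 to 0.744). Many of these overlaps came from 49 matNeu-only peaks with a fold below 2, described below, of which 35 had CHD4 in Gfi1-/- GMPs. Of the other 3485, 55 (1.58%) had it there and 356 (10.2%) in WT GMPs. The difference from the shared peaks was not computed without the 49. CHD4 was mapped in GMPs, a stage in which these regions had no H3K4me2 peak.

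ATAC-seq, which cuts and tags accessible DNA, gave peaks at 111 matNeu-only regions (3.14%, Wilson interval 2.61 to 3.77%), against 26.9% of the shared peaks. The preNeu-only (0.307%) and GMP-only peaks (0.382%) had fewer, and the difference from the preNeu-only peaks was 2.83 points (2.29 to 3.47). Among weak peaks the order against the shared peaks turned, with 1.75% of the matNeu-only and 1.02% of the shared peaks (0.726 points, 0.224 to 1.33). The 49 matNeu-only peaks with a fold below 2, described below, held 17 of the 111 overlaps. The difference among weak peaks was not computed without them.

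**Figure D1:**
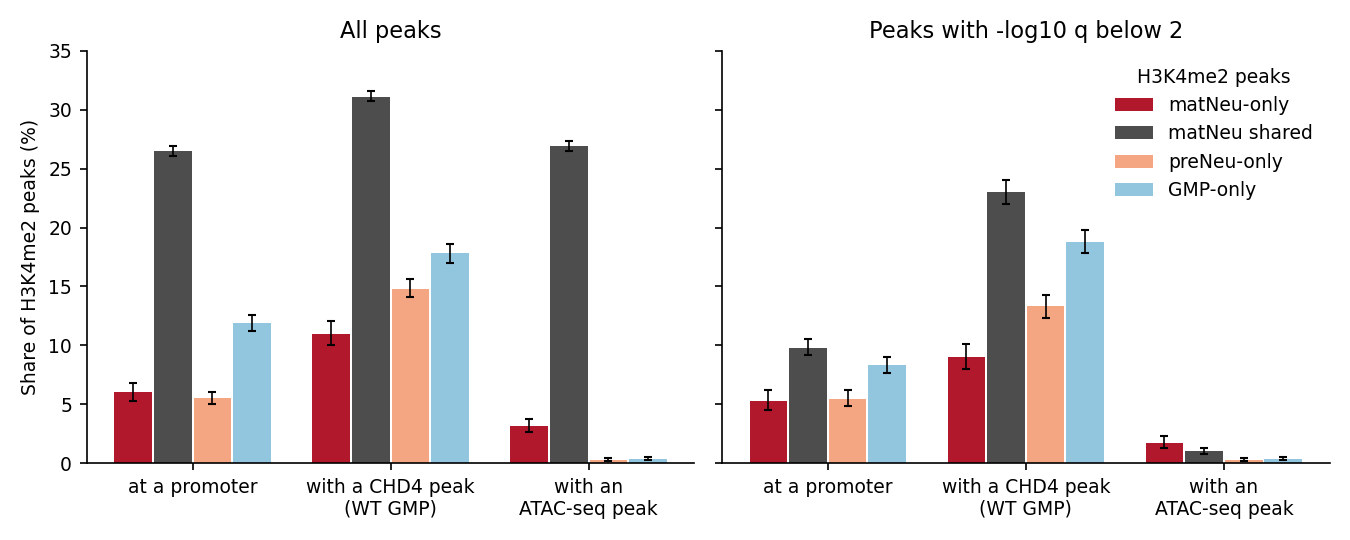
Share of H3K4me2 peaks (%, y axis) that lie at a promoter, touch a CHD4 peak of WT GMPs or touch an ATAC-seq peak, for the matNeu-only, shared matNeu, preNeu-only and GMP-only peaks, over all peaks (left) and over peaks with a −log10 q-value below 2 (right). Bars are shares with 95% Wilson intervals, and the matNeu-only bars for promoters (6.0%) and CHD4 (11%) stand far below the shared bars (26.5% and 31.1%).

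A small set of the matNeu-only peaks had a low fold, and those of the set on assembled chromosomes lay largely in repeats. A fold enrichment below 2 was listed for 49 of the matNeu-only peaks, 14 on chromosome 9 and 12 on 1 unplaced scaffold. Repeat sequence was not read for peaks on scaffolds. In the 37 of the 49 on assembled chromosomes, a median of 95.3% of the bases was repeat sequence. Among the other 3485 peaks the median was 18.7%, again without those on scaffolds. CHD4 peaks of WT GMPs touched 33 of the 49 (67.3%), and of the 28 that had a −log10 q-value of 5 or more, 27 carried CHD4 peaks in both genotypes. They set the value among strong peaks. Of the 67 regions with a −log10 q-value of 5 or more, 53.7% had CHD4. Of the 39 among them with a fold of at least 2 it was 23.1% (Wilson interval 12.6 to 38.3%). Among shared peaks past the same q-value limit 33.3% had CHD4. Those shared peaks were stronger and wider, with a median fold of 6.72 against 4.05 for the 39 and a median width of 2020 bp against 556 bp. Without the 49, CHD4 was at 10.2% and ATAC-seq at 2.7% of the matNeu-only peaks. Repeats were also at the top of the list by fold. The highest, 8.22 on chromosome 11 with no gene within 100 kb, and the peak ranked 3, on chromosome Y, lay wholly in repeat sequence. The peak upstream of Col19a1 (chr1:24611640-24616138) shared 99.1% of its 25-base words with the mitochondrial genome, and 1 other of the 3512 regions compared, on chromosome 2, shared 80.9%.

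The genes next to the matNeu-only peaks were more often expressed higher in matNeu cells than other genes were. The protein-coding gene with the nearest start site within 100 kb was taken for each peak, which gave 2264 genes for 3099 peaks, and 1719 of these passed the filter of 1 TPM in at least 3 libraries, while 536 in the table did not. Between preNeu and matNeu cells, 715 of the 1719 (41.6%) were higher in matNeu cells and 518 (30.1%) lower at an adjusted p of 0.05 (limma), where 22.9% of all 13061 genes tested were higher and 39.8% lower. Their median log2 change was 0.22 and that of all genes −0.32. Against GMPs, 798 (46.4%) were higher in matNeu cells and 597 (34.7%) lower, against 22.8% and 54.1% of all genes. Between GMPs and preNeu cells, before the mark was called, 532 (30.9%) were higher in preNeu cells and 511 (29.7%) lower, against 14.7% and 44.3% of all genes. These comparisons share libraries, so they do not stand apart from each other.

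The same was seen in the levels. The median gene next to a matNeu-only peak stood at 21.7, 23.0 and 22.5 TPM in the GMP libraries, at 21.4, 23.7 and 25.7 TPM in the preNeu libraries and at 25.6, 24.9 and 28.8 TPM in the matNeu libraries. Over all genes tested the median fell from 20.9, 22.0 and 21.7 TPM in GMPs through 12.6, 13.7 and 14.4 TPM in preNeu cells to 7.75, 7.18 and 7.8 TPM in matNeu cells. Within each stage the libraries correlated at 0.96 or more. Scaling each library to its median gene moved the median change of all genes to 0.45 and that of the genes with a matNeu-only peak to 0.98, and the calls to 59.8% higher and 17.3% lower against 42.3% and 24.9% of all genes. Quantile normalization gave 0.03 and 0.52, with 49.0% and 22.6% against 31.5% and 31.1%. Of the 1719 genes, 35 reached 1 TPM only in matNeu libraries and could pass the filter only by being high there. Over the 1278 that reached it in all 9 libraries the shares were 42.9% higher and 31.1% lower, against 25% and 44.0% of all such genes. In bulk RNA, fewer cells of a type and less RNA per cell cannot be told apart. Nothing in the labels says that the 3 libraries of a stage came from separate mice, and p-values measure the spread between these libraries.

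The share of genes that were higher grew with the number of matNeu-only peaks at the gene. Of the tested genes with 1 such peak, 36.8% were higher and 33.1% lower in matNeu than in preNeu cells. With 2 peaks it was 48.5% and 28.2%, and with 3 or more it was 66.5% and 10.6% (107 and 17 of 161 genes), with a median log2 change of 1.1. The share higher was 29.7 points above that with 1 peak (Newcombe interval 21.6 to 37.0), and the share lower differed by −22.5 points (−27.2 to −16.3). The genes with 3 or more peaks had a median of 17.5, 18.2 and 20.6 TPM in GMPs, of 29.1, 34.3 and 33.5 TPM in preNeu cells and of 78.1, 75.4 and 90.1 TPM in matNeu cells. Already between GMPs and preNeu cells 52.2% of these genes were higher and 19.3% lower. Gene length moved with the number of peaks, with a median of 44.1 kb for 1 peak, 65.6 kb for 2 and 110.0 kb for 3 or more, against 19.8 kb for all genes, and so did the number of shared peaks, with medians of 3, 6 and 8 against 1. Among genes with at least 3 shared peaks, those that also had a matNeu-only peak were higher in 44.2% and lower in 28.4% of cases, and those without it in 25.4% and 41.8%, a difference of 18.8 points (15.5 to 22.1) in the share higher. The genes with and without it still differed, with medians of 6 and 4 shared peaks, 69.3 and 40.6 kb of length and 34.0 and 22.7 TPM. The parts of gene length, of the number of shared peaks and of expression level were not tested.

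**Figure D2:**
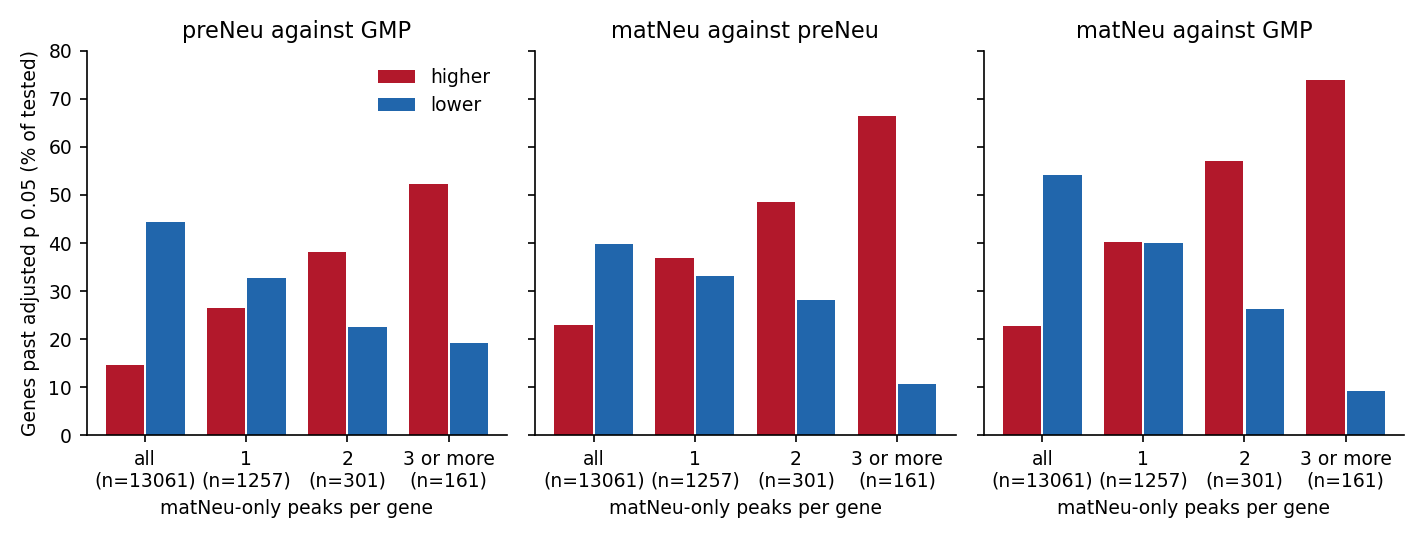
Share of tested genes (%, y axis) that passed an adjusted p of 0.05 (limma) as higher (red) or lower (blue) in the later stage, for all 13061 genes and for genes with 1, 2 or 3 or more matNeu-only peaks (x axis), in 3 panels for preNeu against GMP, matNeu against preNeu and matNeu against GMP. In the middle panel the red bars climb from 36.8% to 66.5% and the blue bars drop from 33.1% to 10.6% as peaks are added, beside 22.9% and 39.8% for all genes.

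The shares also went with distance. Genes with a matNeu-only peak under 2 kb from the start site were higher in 49.6% and lower in 25.4% of cases, those at 2 to 10 kb in 47.2% and 27.3%, those at 10 to 50 kb in 35.3% and 32.9%, and those at 50 to 100 kb in 26.6% and 41.1%, the last close to the shares of all genes. Genes whose matNeu-only peak was over 5 kb from any shared matNeu peak were higher in 34.8% and lower in 34.9% of cases, with a median log2 change of −0.05. The genes next to preNeu-only peaks were higher in 24.2% and lower in 43.8%, and those next to GMP-only peaks in 28.8% and 33.5%. Genes whose matNeu-only peak carried CHD4 in WT GMPs were higher in 46.6% and lower in 25.4% of 236 cases, and the 1483 without it in 40.8% and 30.9%, and both intervals of the difference held 0 (−0.934 to 12.6 and −11.1 to 0.89). For the 60 tested genes whose peak had ATAC-seq signal it was 40.0% and 23.3%.

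**Figure D3:**
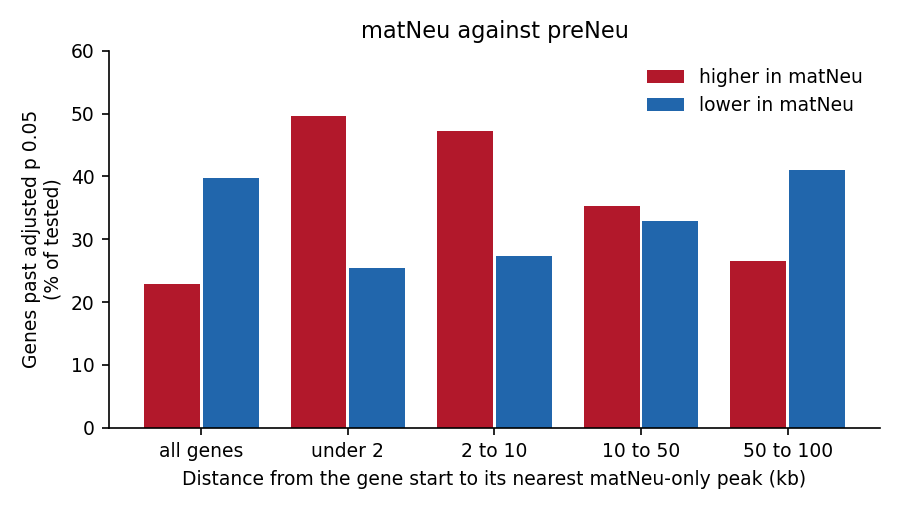
Share of tested genes (%, y axis) that were higher (red) or lower (blue) in matNeu than in preNeu cells at an adjusted p of 0.05 (limma), by the distance from the gene start to its nearest matNeu-only peak (kb, x axis), beside all genes. The red bars go down from 49.6% under 2 kb to 26.6% at 50 to 100 kb, and the blue bars go up from 25.4% to 41.1%.

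The Csf3r gene (ENSMUSG00000028859, chr4:126024550-126044440) had 5 matNeu-only peaks, all intergenic and upstream of its start site, at 61.7, 33.3, 27.8, 22.8 and 19.4 kb. It encodes the receptor for G-CSF, the cytokine that drives the making and release of neutrophils. The 2 widest reached from 34.28 to 32.25 kb and from 20.9 to 17.85 kb upstream, with folds of 3.71 and 3.83. The gene itself carried H3K4me2 at its start in all 3 stages, and in matNeu cells a shared peak ran from 10.01 kb upstream to 9.36 kb downstream of the start. Between 46.4 and 6.95 kb upstream GMPs had no peak. None of the 5 had a CHD4 or ATAC-seq peak. The CHD4 peak of WT GMPs at the locus stood at 6.79 to 6.43 kb upstream, and no CHD4 peak of Gfi1-/- GMPs was listed in the stretch drawn.

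Csf3r was at 132, 131 and 142 TPM in the GMP libraries, at 191, 201 and 225 TPM in the preNeu libraries and at 3946, 3340 and 4336 TPM in the matNeu libraries. The matNeu libraries stood far above all others. The log2 change from preNeu to matNeu cells was 4.22 (SE 0.12, adjusted p = 1.1e-09, limma), and from GMPs to preNeu cells it was 0.6 (SE 0.12, adjusted p = 0.0014).

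**Figure D4:**
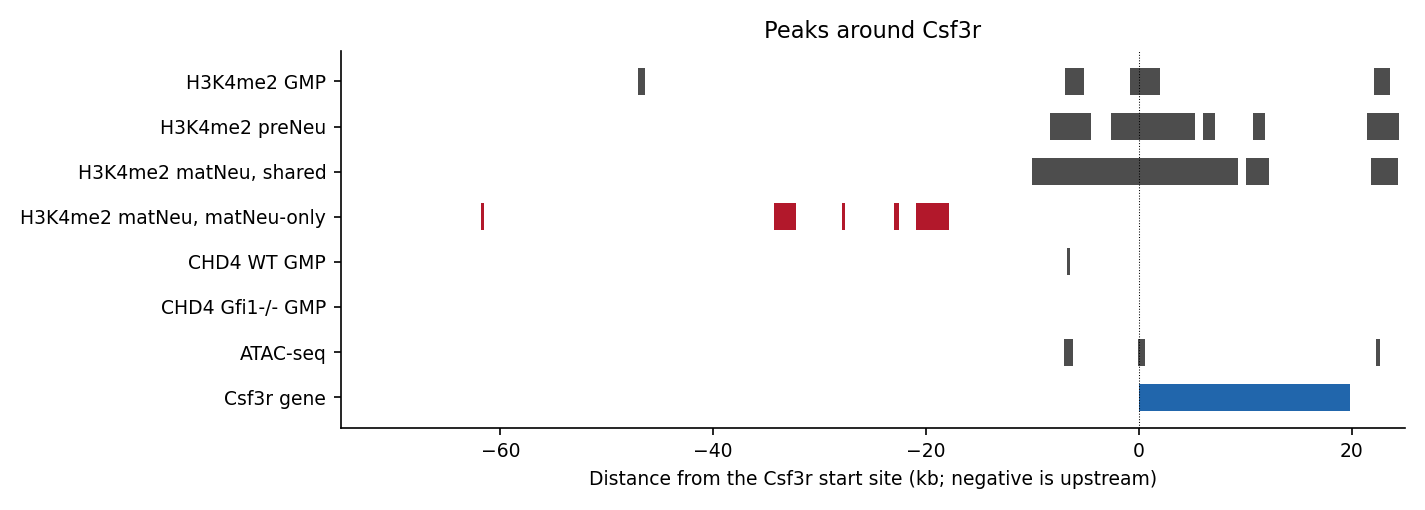
Peaks around Csf3r, by distance from its start site (kb, x axis, negative upstream), in rows for H3K4me2 of GMPs, of preNeu cells and of matNeu cells (shared and matNeu-only), CHD4 of WT and Gfi1-/- GMPs, ATAC-seq and the gene. The 5 matNeu-only peaks (red) lie from 61.85 to 17.85 kb upstream, where no row of GMPs or preNeu cells has a peak at the same place.

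Among receptors for chemotaxis and adhesion, 8 of 17 genes had 15 matNeu-only peaks between them, where 13.2% of all genes tested and 14.5% of the protein-coding ones had a peak. Distances to a gene are to its nearest annotated transcript start, which can lie inside the gene. Between preNeu and matNeu cells 15 of the 17 were higher and 1 lower (median log2 change 2.64, all genes −0.32), with 7 higher and 0 lower among the 8. Beside this list and those that follow stand 22.9% higher and 39.8% lower over all genes tested. Cxcr2, the receptor that draws neutrophils out of the marrow and to sites of infection, had 2 peaks, 16.6 and 18.8 kb downstream of its start. It was at 8.17, 7.65 and 11.9 TPM in GMPs, at 64.7, 93.4 and 70.9 TPM in preNeu cells and at 3027, 3400 and 3976 TPM in matNeu cells. The 3 stages did not overlap, and the log2 change from preNeu to matNeu cells was 5.5 (SE 0.19, adjusted p = 3.2e-09, limma).

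C5ar1, the receptor for complement C5a, had a peak 4.85 kb upstream and was at 302, 336 and 358 TPM in preNeu cells and at 1922, 2239 and 2073 TPM in matNeu cells. In GMPs it was near 0, with 0.224, 0.159 and 2.74 TPM. Fpr2, a receptor for formyl peptides, had a peak 32.8 kb downstream of its start, beyond its end and in an intron of another gene. It was listed at 0 in all 3 GMP libraries and was at 93.5, 93.4 and 73.4 TPM in preNeu and at 274, 326 and 252 TPM in matNeu cells. Both rose at each step without overlap. Trem1, which amplifies the inflammatory response, rose by 2.71 on the log2 scale between preNeu and matNeu cells, and Dock2, which drives the cytoskeleton during migration, by 0.91. Itgam, the Mac-1 chain, rose by 0.63, but by 0.03 with no call under quantile normalization, and Cxcr4, which holds neutrophils in the marrow, had 2 peaks and a log2 change of 0.22 that did not pass the test but was called at 0.98 with median scaling and at 0.56 with quantile normalization.

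Sensors of microbes had peaks at 4 of 14 genes, and all 4 rose between preNeu and matNeu cells, as did 12 of the 14 (list median 4.38). Nlrp3, the sensor of the inflammasome that matures IL-1β, had 3 peaks, 1 upstream and 2 in its introns. It was listed at 0 in 2 preNeu libraries and at 0.611 TPM in the other, at 3.57, 2.85 and 2.79 TPM in GMPs and at 106, 75.1 and 105 TPM in matNeu cells. Its course thus dipped in preNeu cells, and the matNeu libraries stood apart from both. Tlr2, which recognizes bacterial lipoproteins, had a peak 5.5 kb downstream of its start and went from 5.32, 9.23 and 5.94 TPM to 270, 343 and 332 TPM. Tlr4, the receptor for endotoxin, had a peak in its gene body that carried CHD4 in WT GMPs and ATAC-seq signal, and rose by 1.77 on the log2 scale. Clec4e, a lectin that binds mycobacterial glycolipid, had 2 peaks and rose by 4.76.

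Cytokine genes had peaks at 4 of 18, of which 3 rose between preNeu and matNeu cells, and of the 15 of the list that were tested 11 rose and 0 fell (median 3.51). Il1b, the main cytokine of the inflammasome, had a peak 30.8 kb upstream and rose the most of all genes with a matNeu-only peak. It was at 0.119, 0.526 and 0.471 TPM in preNeu cells and at 1908, 1342 and 2236 TPM in matNeu cells, a log2 change of 10.36 (SE 0.3, adjusted p = 1.2e-09, limma). Ccl6, a chemokine, had a peak 19.7 kb upstream and went from 8.33, 9.12 and 10.4 TPM to 6637, 6572 and 5663 TPM. Both were also low in GMPs, with no library there above 17.5 TPM. Csf1, encoding M-CSF, had 2 peaks, 1 of them with CHD4 in WT GMPs, and rose by 3.71, while Vegfa had a change of −0.68 that did not pass, except without matNeu replicate 2 (−1.06).

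All 4 genes with a peak among 18 cytokine receptors and signal inhibitors rose as well: Socs3, which restrains G-CSF and IL-6 signalling, by 7.31, Ifngr2 by 2.06, Il1rap by 1.14 and Ifnar2 by 0.95 on the log2 scale. Over the list 14 rose and 0 fell (median 1.99), and 1 fell under quantile normalization. Socs3 was under 1 TPM in all 6 libraries of GMPs and preNeu cells and at 200, 184 and 299 TPM in matNeu cells. Of 20 interferon-stimulated genes 3 had a peak, among them Ifit3 and Ifitm1, which rose by 5.82 and 7.22, and of the 19 tested 17 rose and 0 fell (median 3.86). The AP-1 and early response list had peaks at 2 of 18 genes although 15 of its 17 tested genes rose (median 3.46). Of these 2, Atf3 rose by 3.73, and Egr3, with a peak 1.44 kb inside the gene, stayed at or under 0.591 TPM in all 9 libraries. NF-κB genes had peaks at 2 of 12, Nfkbia, which rose by 1.55, and Nfkb1, with a change of 0.35 that did not pass. Nfkb1 was called with median scaling (1.12), with quantile normalization (0.63) and without matNeu replicate 2 (0.44) or preNeu replicate 3 (0.45). Over the list 9 of the 12 rose (median 1.26).

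Among myeloid transcription factors 9 of 20 genes had 21 matNeu-only peaks. Between preNeu and matNeu cells 6 of the 9 were higher and 2 lower, against 13 and 3 of the whole list (median 1.48). Klf6, a zinc finger factor of activated myeloid cells, had 5 peaks strung out from 18.1 to 73.5 kb downstream of its start, the farthest with CHD4 in both genotypes. It was at 31.8, 23.8 and 30.0 TPM in GMPs, at 138, 196 and 196 TPM in preNeu cells and at 751, 704 and 820 TPM in matNeu cells. It rose without overlap at each step. Irf2 had 3 peaks and rose by 1.94, Bcl6 had 2 and rose by 2.32, and Stat3, which carries the G-CSF signal, had 2 and rose by 1.22. Cebpd rose by 1.56 and Klf13 by 0.92, with 1 peak each, and the call for Cebpd was lost without matNeu replicate 2 (1.36), matNeu replicate 3 (1.35) or preNeu replicate 3 (1.27). Cebpa, with 2 peaks, had a change of 0.24 that did not pass but was called at 1.01 with median scaling and at 0.98 with quantile normalization.

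Gfi1 went the other way. Its 2 matNeu-only peaks lay 21.8 and 28.6 kb downstream of its start, beyond the end of the gene, with folds of 2.36 and 2.33 and without CHD4. Its RNA was at 8.01, 5.88 and 17.5 TPM in GMPs, at 20.1, 23.2 and 29.2 TPM in preNeu cells and at 0, 0 and 0.145 TPM in matNeu cells. For the protein the paper reports the other direction, with more GFI1 in matNeu than in preNeu cells by western blot. The log2 change of the RNA from preNeu to matNeu cells was −4.57 (SE 0.35, adjusted p = 9.3e-07, limma). Runx1, with 3 peaks, fell by 0.76, but stood at 0.00 when each library was scaled to its median gene and at −0.23 with no call under quantile normalization.

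None of 8 primary granule genes had a matNeu-only peak, and 5 of them fell and 1 rose (median −4.14), or 4 and 3 with median scaling. Of 13 secondary and tertiary granule genes, Slc11a1, the metal transporter of the phagosome, had one inside the gene, 0.299 kb from the start of a shorter transcript and 6.75 kb from the outermost start, and rose by 4.97, and Chil3 had one 13 kb upstream and fell by 7.66 from 41328, 37138 and 43422 TPM to 205, 178 and 217 TPM. Over that list 5 rose and 7 fell (median −1.75). Survival genes, of which 7 rose and 2 fell (median 0.7), had peaks at 3 of 14, among them Birc3 and Bcl2l11, which rose by 1.93 and 1.42.

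**Figure D5:**
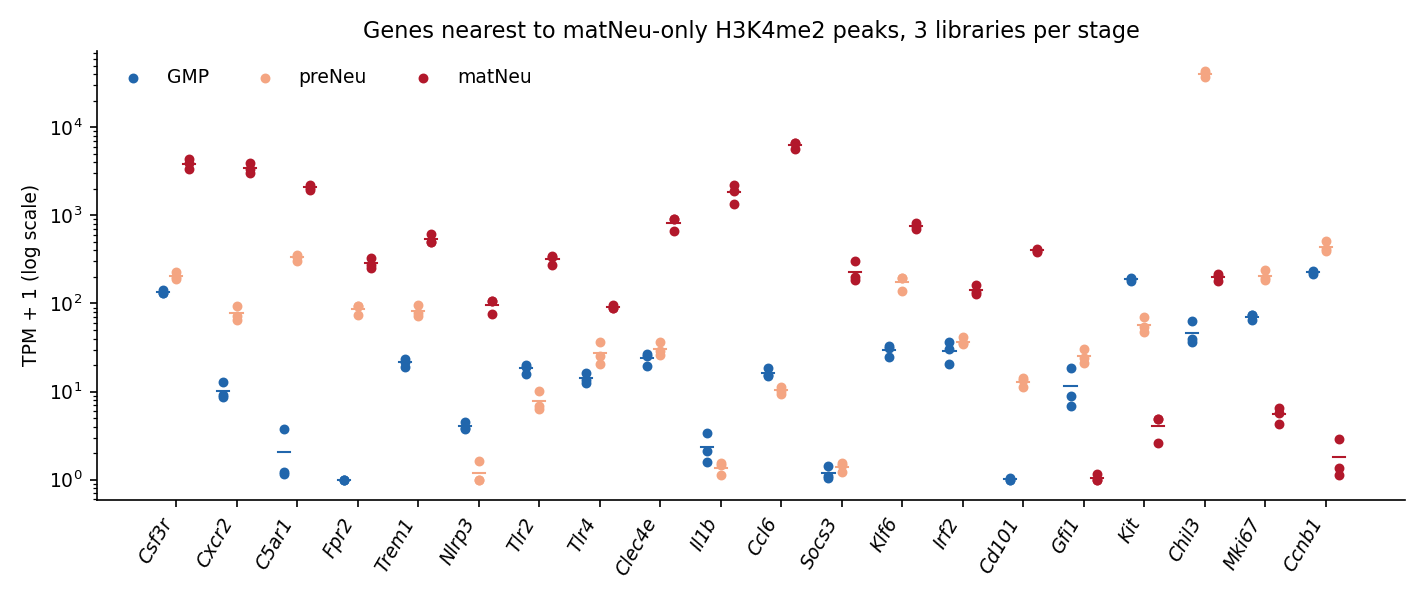
TPM + 1 (y axis, log scale) in each of the 3 libraries per stage (points, with the mean as a line) for 20 genes next to matNeu-only peaks, in GMPs (blue), preNeu cells (orange) and matNeu cells (red). For the 15 genes from Csf3r to Cd101 the matNeu points stand above the preNeu points, and for Gfi1, Kit, Chil3, Mki67 and Ccnb1 they stand below.

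Large rises next to matNeu-only peaks were also found at Arg2, an arginase, by 8.1, and at Cd101, a surface marker of mature neutrophils, by 4.96. Cd101 had 4 peaks, 3 of them inside the gene and 1 of these with CHD4, and went from 10.2, 12.4 and 13.1 TPM in preNeu cells to 398, 385 and 415 TPM in matNeu cells, after at most 0.0554 TPM in GMPs. Sirpb1a, Sirpb1b, Sirpb1c, Gm5150 and H2-Q10 had rises of 7.78 to 9.25, but they belong to families of near-identical genes among which reads may be split, so their levels are uncertain, as are those of Ifit3, Chil3 and Mrgpra2a. The largest falls were those of genes for division, Ccnb1 (−8.07), Ect2 (−5.89), Plk4 (−5.7), Ska3 (−5.54) and Cit (−5.39), together with Chil3, Ica1 (−6.11) and Inhba (−5.94). Ccnb1, a cyclin of mitosis, went from 396, 417 and 511 TPM in preNeu cells to 0.37, 0.125 and 1.86 TPM in matNeu cells although a matNeu-only peak lay 9.23 kb upstream of it. Mki67 and Kit, with 1 peak each, fell by 5.24 and 3.84.

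Of the 20 peaks with the highest fold, 14 had a gene within 100 kb. Of these 14 genes 12 were tested, and 5 were higher and 3 lower in matNeu than in preNeu cells (41.7% and 25%). The shares were 41.6% and 30.1% over all tested genes with a matNeu-only peak, and 22.9% and 39.8% over all genes tested. Slc39a4, a zinc importer, had its peak inside the gene (fold 4.27), by the start of a shorter transcript, and went from 0.998, 0.765 and 0 TPM to 53.8, 69.5 and 56.6 TPM. Arid4a, a chromatin protein, had the peak ranked 2 (fold 5.09) in an intron and rose by 1.37, Cst3, a protease inhibitor, rose by 1.54 and Sorl1, a sorting receptor with 4 peaks, by 2.07. Smc4, a subunit of condensin, had its peak 12.6 kb inside the gene, by the start of a shorter transcript, and fell by 3.77, and Ipo9 and Lgals3bp fell by 2.15 and 1.72. Cab39, Smyd5, Havcr2 and Ino80c had changes of −0.35, 0.08, 0.08 and −0.02 that did not pass. With median scaling all 4 were called higher (0.41, 0.84, 0.84 and 0.74), and Cab39 was called lower without matNeu replicate 3 (−0.49), while Dlx1 and Col19a1 did not pass the filter.

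The genes with the most peaks were mainly long. AC149090.1, with 12 on the unplaced scaffold, is not in the expression table. Of the other 9 in the first 10, the levels of 7 rose between preNeu and matNeu cells and 1 fell. Over all genes tested 22.9% were higher and 39.8% lower. Pag1, an adaptor that holds back SRC kinases, had 8 peaks and was at 26.1, 32.5 and 26.2 TPM in preNeu and at 113, 122 and 144 TPM in matNeu cells. Jak1, the kinase of many cytokine receptors, had 6 peaks, 5 of them in its introns and 1 beyond its end, and went from 103, 130 and 138 TPM to 444, 426 and 452 TPM. Svil (8 peaks), Cers6 (7), Mbp (6), Mrgpra2a (6) and Tbl1xr1 (7) rose by 1.88, 2.1, 1.35, 1.1 and 0.53, and the call for Mrgpra2a was lost without matNeu replicate 2, preNeu replicate 2 or preNeu replicate 3 (0.80, 1.02 and 0.99). Mtmr3 (6) had a change of −0.21 that did not pass and was called higher with median scaling (0.56). Syne1, a large protein of the nuclear envelope, had 11 peaks, 9 of them in introns, and fell by 2.07 between preNeu and matNeu cells, from 174, 208 and 230 TPM to 47.7, 50.0 and 45.5 TPM, after a rise of 4.35 from 9.8, 7.98 and 9.19 TPM in GMPs.

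Markers of other cells were checked because a sorted fraction can hold them. Of 9 B cell markers, 5 of the 8 tested were higher in matNeu than in preNeu cells and 0 lower, and their sum ran from 614 to 759 TPM in the matNeu, from 270 to 329 TPM in the preNeu and from 541 to 658 TPM in the GMP libraries. None was at 0 in the matNeu libraries, where Ighm reached 612 TPM. Ebf1, a B cell factor with a matNeu-only peak in an intron, moved with them, from 0.429, 1.51 and 1.85 TPM to 1.71, 4.56 and 3.72 TPM (log2 change 0.93, adjusted p = 0.038, limma), and the part of B cells in it was not tested. That call was lost without GMP replicate 2 (0.93), matNeu replicate 2 (0.72), matNeu replicate 3 (0.84) or preNeu replicate 1 (0.63). Of 11 monocyte and macrophage markers 2 were higher and 7 lower, and their sum was 1154 to 1511 TPM in matNeu against 1769 to 2285 TPM in preNeu cells. Peaks lay at 4 of them: Csf1r rose by 4.47 and Ccr2, Mrc1 and F13a1 fell, with log2 changes of −1.52, −2.07 and −1.83. Csf1r dipped in preNeu cells, from 232, 192 and 188 TPM in GMPs to 8.22, 10.9 and 22.3 TPM. It stood at 309, 253 and 350 TPM in matNeu cells, and its change of 0.57 against GMPs did not pass. Summed T and NK cell markers were at 29.4 to 32.2 TPM in matNeu cells. Cd3d and Thy1 were the highest of them there, at up to 14.1 and 13.5 TPM, and Cd3e was at most 0.0748 TPM. Of the 6 tested, 1 was higher and 2 lower than in preNeu cells. Cd3g, with 1 peak, did not pass the filter. The eosinophil, basophil and mast cell markers summed to 45.9 to 60.5 TPM in matNeu cells. Siglecf was the highest of them there, at up to 48.7 TPM, and Epx was at 0. Of these 9 markers, 1 was higher and 6 lower in matNeu than in preNeu cells. The erythroid and megakaryocyte markers summed to 7.8 to 12.3 TPM in matNeu cells, and neither list had a matNeu-only peak.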

How the data were processed

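The members, gene lists and tests were chosen with earlier results of these data known. Per the submitters' processing notes, FastQC 0.11.5, MultiQC 1.6, Trimmomatic 0.36, BWA 0.7.17, MACS2 2.1.0 and kallisto 0.44.0 were used with mm10. The authors deposited 1 peak list per ChIP-seq or ATAC-seq library, with the fold enrichment as a linear ratio and the −log10 q-value of each peak. The score the authors deposited beside them was not used. The depth behind these peaks is unknown. Expression was deposited by the authors in TPM, a unit that keeps no depth. The paper describes TopHat and HTSeq, and which route made the TPM is not settled. Lists for H3K4me3 and GFI1 use chromosome names that are not of mm10 and were not used (not analysed here). The number of columns of per-sample values not used was 0.

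Overlaps of at least 1 bp, GENCODE M21 start sites and 95% Wilson and Newcombe intervals were computed in Python 3.11.15 (pandas 2.3.3, numpy 2.4.6, pysam 0.24.0), and plots in matplotlib 3.10.9. The 9 RNA-seq libraries entered a single limma fit (limma 3.58.1, R 4.3.3) of log2(TPM + 1) on stage, with a variance trend. Genes had to reach 1 TPM in 3 or more libraries. Adjusted p is by the Benjamini-Hochberg method across every gene in the fit. Fold changes on this scale understate those of low genes. Scripts were first tested on simulated data. Named genes were the nearest genes of the 20 peaks with the highest fold, the 10 genes with the most peaks, the 8 largest rises and 8 largest falls between preNeu and matNeu cells among genes with a peak, and every listed gene with a peak. Alternatives were other overlaps, q-values, distances, promoters, gene types, filters, pseudocounts, scalings and fits, and leaving out each library.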

Additional observations from a re-analysis of the deposited data

How the results depend on the processing

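The 3534 regions became 67 at a −log10 q-value of at least 5. With that limit 22.4% lay at promoters, 53.7% had CHD4 and 19.4% an ATAC-seq peak. For the 39 of the 67 with a fold of at least 2, these shares were 10.3% (Wilson interval 4.06 to 23.6%), 23.1% and 17.9%. Of the genes next to the 67, 16 were higher and 5 lower in matNeu than in preNeu cells (median 0.56). Against GMPs it was 14 and 7. In peaks with a −log10 q-value below 2, a comparison added after seeing the data, CHD4 was at 8.99% and ATAC-seq at 1.75%. Promoters of 1 kb on either side held 5.12%, and ATAC-seq peaks past the same limit touched 0.99%. Start sites within 10 kb gave 454 higher and 255 lower genes (median 0.47), and 493 and 290 against GMPs. Regions over 5 kb from a shared peak, also added later, gave 274 and 275 (median −0.05, the other sign than 0.22) and 298 and 335 against GMPs. Median scaling left 297 lower genes (median 0.98) and 286 against GMPs, and quantile normalization gave a median of 0.52 and 384 lower genes against GMPs. The median was 0.34 over all gene types and 0.11 with no filter on low values. Leaving out 1 library at a time gave medians of 0.14 to 0.28, 662 to 714 higher and 465 to 516 lower genes, and 772 to 798 and 571 to 597 against GMPs. The lowest median, 0.14, came without preNeu replicate 1.

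Replicate numbers did not pair the libraries (correlations of same-numbered libraries −0.0394 to 0.123), and blocking on that number gave 720 higher and 511 lower genes, and 801 and 592 against GMPs. Of the alternatives for named genes, 1014 kept direction and call, 13 gained the call, 13 lost it and 13 turned sign. The signs turned for Smyd5 (−0.11 and −0.01 without matNeu replicate 1 or preNeu replicate 2), Havcr2 (−0.05 and −0.21 without matNeu replicate 3 or preNeu replicate 1, up to 0.29 without others), Ino80c (0.74 and 0.35 with median scaling and quantile normalization, 0.19 and 0.10 without matNeu replicate 1 or preNeu replicate 3, down to −0.15 without others), Cab39 (0.41), Vegfa (0.08) and Runx1 (0.00) with median scaling, and Mtmr3 (0.56 and 0.06 with median scaling and quantile normalization). Except for Runx1 these genes had no call as deposited. The cause was not tested. Without a replicate the H3K4me2, CHD4 and ATAC-seq lists have no measure of the spread between libraries.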
